A study of Homo sapiens with 8 samples.

Results

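The genes described here encode the core components of the spliceosome, the machine that removes introns from pre-mRNA. They were chosen by symbol: CRNKL1, CDC5L, XAB2, U2AF1, U2AF2, SART1 and SART3, and all symbols that begin with SNRNP, SNRP, SF3A, SF3B, PRPF or LSM. This rule met 61 rows of the deposited counts, 2 of them pseudogenes that were left out, so that 59 of 13841 rows remained. XAB2, PRPF6 and SNRNP40 were not analysed here. LSMEM2 met the rule by its letters alone, since it encodes a membrane protein and not an LSM protein. After a filter on low counts 56 of the 59 were tested, and LSMEM2, LSM12 and SNRPN were not.

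RNA came from A549, a cell line derived from a lung adenocarcinoma. All cells were stretched for 24 h at 15 cycles per min and 15% elongation, then stained for β-galactosidase and sorted 6 days later. The stain reads a lysosomal enzyme and is a common marker of senescence. The 4 libraries labelled Senescent came from stained cells and are called positive 1, 3, 4 and 5, and the 4 labelled Non_senescent came from unstained cells and are called negative 2, 6, 7 and 8. Both groups were stretched, and no unstretched cells are compared. The labels name no separate cultures, so each p-value rests on a spread between libraries that may be technical. In bulk RNA, fewer cells of a type and less RNA per cell cannot be told apart.

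The spliceosome is built from small nuclear ribonucleoproteins (snRNPs), each of which carries a small RNA and a ring of proteins. U1 finds the 5′ splice site and U2, helped by the U2AF dimer, the branch point. The U4, U6 and U5 particles then join as a tri-snRNP, and the PRP19 complex steadies the catalytic form. U1, U2, U4 and U5 carry the Sm ring, and U6 carries the LSM2 to LSM8 ring. A minor spliceosome with U11 and U12 removes a rare class of introns.

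Total counts ranged from 5634961 to 7990839 per library. Positive 1 and negative 2 stood apart from the other 6. Over all tested genes the median distance of a library from each gene's median, in log2(CPM + 0.5), was 0.34 for positive 1 and 0.42 for negative 2, and lay between 0.12 and 0.18 for the rest. Over the spliceosome members it was 0.32 for positive 1, 0.46 for negative 2 and 0.11 to 0.19 for the rest. CPM are counts scaled to a common library size with TMM factors, and the method amplifies 1 short stretch of each gene, so CPM are not compared between genes. Positive 1 also had the highest summed level of the mitochondrially encoded rows, 103 CPM, whereas the other 3 positive libraries held 16.5 to 22.6 CPM, with negative 2 at 10.9 CPM and the other 3 negative libraries between 18.1 and 20.3 CPM. Of the epithelial markers 9 of 10 had a row, with summed levels of 4714 to 5342 CPM in positive and 5779 to 6543 CPM in negative libraries. SFTPB, a surfactant gene of alveolar type 2 cells, was at most at 0.51 CPM in any library, and NKX2-1, the lung lineage factor, was not analysed here. Fibroblast markers with a row (4 of 6) summed to 9.06 to 13.01 CPM in positive and 7.27 to 10.8 CPM in negative libraries, leukocyte markers (2 of 4) to 31.9 to 41.7 and 28.1 to 41.4 CPM, and endothelial markers (1 of 3) to at most 1.18 and 0.998 CPM. GLB1, which encodes the lysosomal β-galactosidase, was at 28.9, 49.8, 43.7 and 51.5 CPM in positive 1, 3, 4 and 5, against 44.9, 56.0, 53.7 and 50.2 CPM in negative 2, 6, 7 and 8, with overlap (edgeR adjusted p 0.569). The other genes listed with it for senescence and the cell cycle also overlapped between groups. Their log2 fold changes, positive over negative, were 0.30 for CDKN1A, 0.21 for MKI67 and -0.66 for LMNB1 (edgeR adjusted p 0.554, 0.656 and 0.438).

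No spliceosome member passed the adjusted threshold of 0.05 in edgeR's quasi-likelihood test, as for all 11351 tested genes (0%, with a smallest adjusted p of 0.309). At an unadjusted p under 0.05 there were 17 of 56 members, or 30.4%, beside 1631 of 11351 tested genes, or 14.4%. Of these members 6 were higher and 11 lower in positive cells, beside 7.52% and 6.85% of all tested genes. DESeq2's Wald test called 52 genes, or 0.458%, among them 2 members, CRNKL1 and SNRPD3, and limma voom called 0 genes, with 18 members at an unadjusted p under 0.05, beside 16.2% of all tested genes. The median log2 fold change of the members was -0.18, beside -0.02 for all tested genes, and 39 of 56 were below 0, beside 51.9% of all tested genes. The median without negative 2 was -0.05, and without both positive 1 and negative 2 it was -0.14. Without both of these libraries 12 members had an unadjusted p under 0.05, 5 higher and 7 lower, beside 5.77% and 4.27% of all genes tested in that fit, and 10 of these 12 were among the 17.

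The groups did not overlap for 9 of 56 members (16.1%), beside 9.14% of all tested genes. Among them CRNKL1 and PRPF40B were higher in positive cells, 2 members beside 5% of all tested genes, and SNRPD3, SF3B2, LSM8, SNRPC, SF3A3, PRPF8 and SART3 were lower, 7 members beside 4.14%. With each of the 8 libraries left out in turn, 7 of the 17 members kept an unadjusted p under 0.05 each time. These were CRNKL1, PRPF40B and LSM11, higher in positive cells, and SNRPD3, SF3B2, LSM8 and SNRPC, lower. All of them except CRNKL1 also kept it under the 10 other alternatives tried, and CRNKL1 could not be tested in 1 of these, which asked for at least 50 counts in 4 libraries. How many of all tested genes kept it each time was not counted. The other members of the 17 went above 0.05 with at least 1 library left out. For SNRNP35 these were positive 4 or 5, for SNRNP27 positive 4 or negative 6 or 7, for LSM3 positive 1 or 4 or negative 2, for SNRNP25 positive 1, 3 or 4 or negative 2, and for LSM6 positive 3 or 4 or negative 2 or 7. PRPF8, SNRPD2, PRPF4 and SF3A3 went above it without any of 5 or 6 of the 8 libraries.

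The promoter windows of members with the smallest p in each direction are shown as examples, picked by p in these same data. Each window holds 300 bases around a gene's start in RefSeq, build GRCh38.p14, 50 of them after the start, and is given 5′ to 3′ on the gene's strand. Capitals mark matches on either strand to the ETS core CCGGAAG, to the box GATTGG that the factor NF-Y binds, to the letters TGCGCA of the NRF1 site, or to the promoter element spelled TATAAA.
CRNKL1 (chr20:20055997-20056296, minus strand, higher in positive cells): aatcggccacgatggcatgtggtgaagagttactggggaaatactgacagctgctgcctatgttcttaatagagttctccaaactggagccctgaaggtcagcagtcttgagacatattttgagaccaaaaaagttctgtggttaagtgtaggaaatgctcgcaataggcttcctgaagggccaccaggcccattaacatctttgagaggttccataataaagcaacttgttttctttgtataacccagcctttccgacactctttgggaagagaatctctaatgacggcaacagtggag
PRPF40B (chr12:49623311-49623610, plus strand, higher in positive cells): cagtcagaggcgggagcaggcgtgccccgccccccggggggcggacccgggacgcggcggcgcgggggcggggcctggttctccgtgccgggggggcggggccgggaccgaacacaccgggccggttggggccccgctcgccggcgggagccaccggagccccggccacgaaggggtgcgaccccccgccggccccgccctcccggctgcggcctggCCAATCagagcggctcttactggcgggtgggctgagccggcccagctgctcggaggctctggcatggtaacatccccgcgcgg
SNRPD3, first start (chr22:24555400-24555699, plus strand, lower in positive cells): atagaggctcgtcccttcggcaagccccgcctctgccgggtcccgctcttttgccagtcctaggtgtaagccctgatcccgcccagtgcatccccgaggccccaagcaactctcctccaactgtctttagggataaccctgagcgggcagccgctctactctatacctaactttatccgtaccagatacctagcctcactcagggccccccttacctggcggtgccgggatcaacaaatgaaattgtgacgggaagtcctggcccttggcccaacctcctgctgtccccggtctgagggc
SNRPD3, another start (chr22:24555749-24556048, plus strand): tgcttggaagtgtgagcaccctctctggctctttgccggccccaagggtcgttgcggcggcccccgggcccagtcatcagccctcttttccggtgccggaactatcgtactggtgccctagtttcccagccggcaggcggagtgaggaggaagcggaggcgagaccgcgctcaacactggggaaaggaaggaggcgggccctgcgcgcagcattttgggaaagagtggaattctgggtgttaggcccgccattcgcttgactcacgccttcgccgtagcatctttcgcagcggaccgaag
SF3B2 (chr11:66052114-66052413, plus strand, lower in positive cells): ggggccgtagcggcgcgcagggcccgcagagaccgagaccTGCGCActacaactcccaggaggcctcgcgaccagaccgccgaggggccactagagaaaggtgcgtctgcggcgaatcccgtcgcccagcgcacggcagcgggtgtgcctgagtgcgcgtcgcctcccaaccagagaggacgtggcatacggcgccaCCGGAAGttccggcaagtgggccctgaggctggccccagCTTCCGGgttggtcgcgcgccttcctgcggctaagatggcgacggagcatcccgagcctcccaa
LSM8 (chr7:118183914-118184213, plus strand, lower in positive cells): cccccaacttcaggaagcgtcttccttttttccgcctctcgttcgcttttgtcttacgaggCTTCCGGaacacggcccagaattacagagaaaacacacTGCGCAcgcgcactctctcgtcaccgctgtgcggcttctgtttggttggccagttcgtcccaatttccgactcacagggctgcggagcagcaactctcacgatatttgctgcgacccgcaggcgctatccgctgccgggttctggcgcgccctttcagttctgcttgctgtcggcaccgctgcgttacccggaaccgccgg

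Windows were found for 48 of 59 members, 59 windows in all, since some genes have more than 1 start. The ETS core stood in 39% of the members' windows, beside 17.1% of the 12167 windows of genes tested here and 10.3% of all 35116 windows. The NRF1 letters stood in 25.4%, beside 12.1% and 8.24%. The NF-Y box stood in 18.6%, beside 18% and 15.1%, and the letters TATAAA in 1.69%, beside 6.07% and 11.5%. Counted by gene, the ETS core stood in 20 of the 48 members with a window (41.7%). Among members at an unadjusted p under 0.05, it stood in 1 of 4 with a window that were higher in positive cells (SNRNP27). It stood in 5 of 10 that were lower (SF3B2, LSM8, SNRPC, SNRPD2 and SF3A3), and these counts are too small to compare the directions. A match is a description of letters, and binding was not measured.

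The group of the PRP19 complex and related proteins, of which 3 with a row met the symbol rule, held the member with the smallest p. CRNKL1 encodes a scaffold protein with many repeats that links parts of the catalytic spliceosome. It was at 5.01, 5.23, 3.73 and 6.03 CPM in positive 1, 3, 4 and 5, against 0.727, 1.86, 1.54 and 1.43 CPM in negative 2, 6, 7 and 8. Every positive library lay above every negative one, with a log2 fold change of 1.84 ± 0.34 (SE), an unadjusted p of 0.000154 and an adjusted p of 0.309 in edgeR. DESeq2's Wald test gave an adjusted p of 0.0128 for it. These levels rest on 28 to 46 counts per positive library and 5 to 11 per negative library. CRNKL1 lies on chromosome 20 at 20034368 to 20056046 (GRCh38, GENCODE), minus strand, and 4.8% of its exonic bases are shared with CFAP61 on the other strand. The sources used here do not say whether the counting used strand. PRPF19, the ubiquitin ligase that names the complex, averaged 44.8 ± 7.76 CPM in positive and 60.8 ± 29.2 CPM in negative libraries (SD, n = 4 each), and CDC5L, another scaffold protein of it, averaged 39.8 ± 3.07 and 44.5 ± 9.75 CPM. Both overlapped between groups, with negative 2 highest at 103 CPM for PRPF19 and 55.5 CPM for CDC5L.

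**Figure D1:**
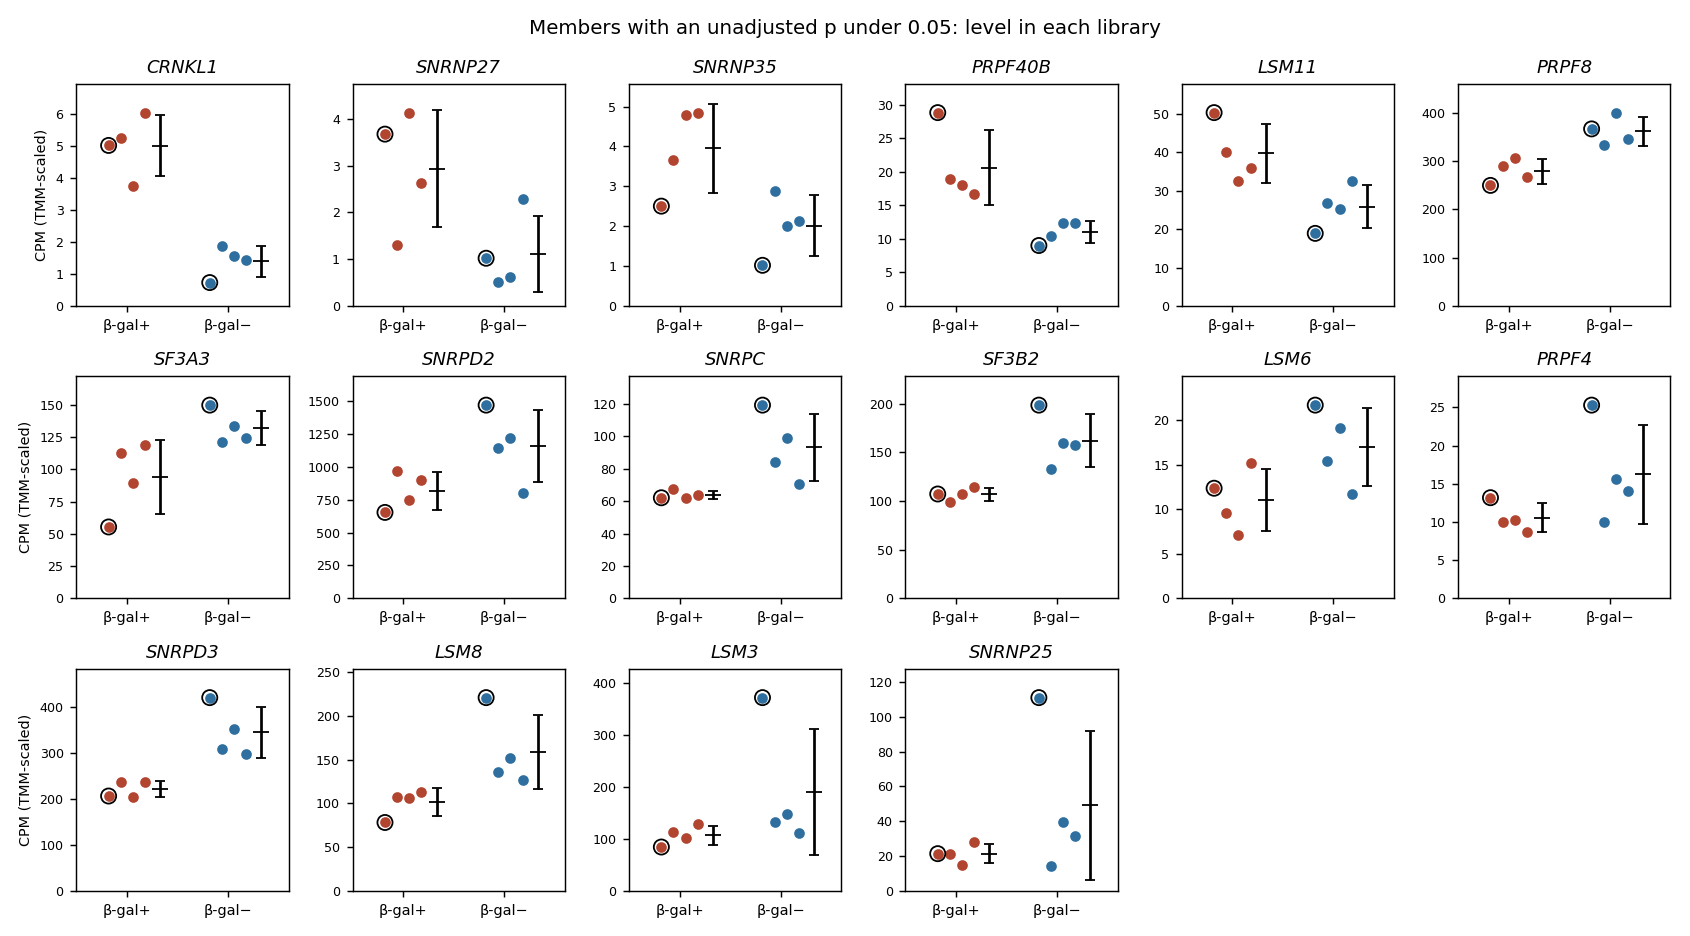
Level in CPM (y axes, from 0) of 16 members with an unadjusted p under 0.05, in each of the 4 β-galactosidase positive (β-gal+, left, red) and 4 negative (β-gal−, right, blue) libraries, ordered by log2 fold change; bars give the mean and SD, and rings mark positive 1 and negative 2. The groups are apart for CRNKL1 and PRPF40B (higher in positive cells) and for SNRPD3, SF3B2, LSM8, SNRPC, SF3A3 and PRPF8 (lower), while for LSM3 and SNRNP25 negative 2 alone is far above the rest.

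The U1 group had 5 of 6 log2 fold changes above 0, with a median of 0.49. Without positive 1 the median was 0.19, with 3 of 6 above 0, and without both positive 1 and negative 2 it was 0.07. PRPF40B, a human relative of a yeast U1 protein, was at 28.9, 18.9, 17.99 and 16.6 CPM in positive 1, 3, 4 and 5, against 9.02, 10.5, 12.3 and 12.4 CPM in negative 2, 6, 7 and 8. The groups did not overlap, and the log2 fold change was 0.89 ± 0.23 (SE; edgeR adjusted p 0.309), or 0.69 without positive 1. PRPF39, the counterpart of another yeast U1 protein, averaged 59.0 ± 10.8 CPM in positive and 44.1 ± 14.0 CPM in negative libraries (SD, n = 4 each), with overlap.

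Of the proteins specific to U1, SNRPC, which helps to seat U1 on the 5′ splice site, was at 62.1, 67.6, 62.0 and 64.0 CPM in positive 1, 3, 4 and 5, against 119, 84.3, 98.8 and 70.4 CPM in negative 2, 6, 7 and 8. The positive libraries were close together and all below the negative ones, with a log2 fold change of -0.54 ± 0.18 (SE; edgeR adjusted p 0.309). GENCODE lists 18 pseudogenes named after SNRPC, none with a row here, and their sequence identity to SNRPC was not measured. SNRNP70, the protein that binds the first stem-loop of U1 RNA, was at 114, 23.7, 21.9 and 25.4 CPM in positive 1, 3, 4 and 5, against 34.5, 19.8, 30.1 and 40.4 CPM in negative 2, 6, 7 and 8. Positive 1 stood far above the rest, and the log2 fold change of 0.56 ± 0.50 (SE) had an unadjusted p of 0.28 in edgeR. The U1 protein SNRPA averaged 200 ± 29.7 CPM in positive and 189 ± 53.9 CPM in negative libraries (SD, n = 4 each).

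The Sm ring had 6 of 7 log2 fold changes below 0, with a median of -0.26, which was -0.04 without negative 2 and -0.41 without positive 1. SNRPD3 was at 206, 236, 205 and 236 CPM in positive 1, 3, 4 and 5, against 420, 309, 353 and 298 CPM in negative 2, 6, 7 and 8. No value overlapped, and the log2 fold change was -0.64 ± 0.17 (SE; edgeR adjusted p 0.309), or -0.52 without negative 2. DESeq2's Wald test gave an adjusted p of 0.0432. SNRPD3 lies on chromosome 22 at 24555503 to 24609980, where GENCODE also places GUCD1 and LRRC75B on the other strand. SNRPD2, another subunit of the ring, was at 654, 971, 751 and 900 CPM in the positive libraries, against 1469, 1141, 1222 and 800.0 CPM in the negative ones. Negative 8 overlapped the positive range, and the log2 fold change was -0.50 ± 0.21 (SE), with an unadjusted p of 0.0333, or 0.0969 without negative 2.

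SNRPE alone of the Sm proteins had a value above 0, at 0.38 ± 0.28 (SE), with 284 ± 54.6 CPM in positive and 218 ± 87.4 CPM in negative libraries (SD, n = 4 each). Its lowest value was 110 CPM, in negative 2, the library in which SNRPB, SNRPD2, SNRPD3, SNRPF and SNRPG were at their highest. SNRPB was at 740, 516, 442 and 542 CPM in positive 1, 3, 4 and 5, against 949, 543, 592 and 604 CPM in negative 2, 6, 7 and 8. The groups overlapped, and its log2 fold change was -0.26 (95% interval -0.74 to 0.22), which was -0.04 without negative 2 and -0.43 without positive 1. The log2 fold changes of SNRPD1, SNRPF and SNRPG lay between -0.36 and -0.15, with intervals that spanned 0. GENCODE lists 20 pseudogenes named after SNRPG and 9 named after SNRPE, whose identity to these genes was not measured either, so their counts may include reads of copies.

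**Figure D2:**
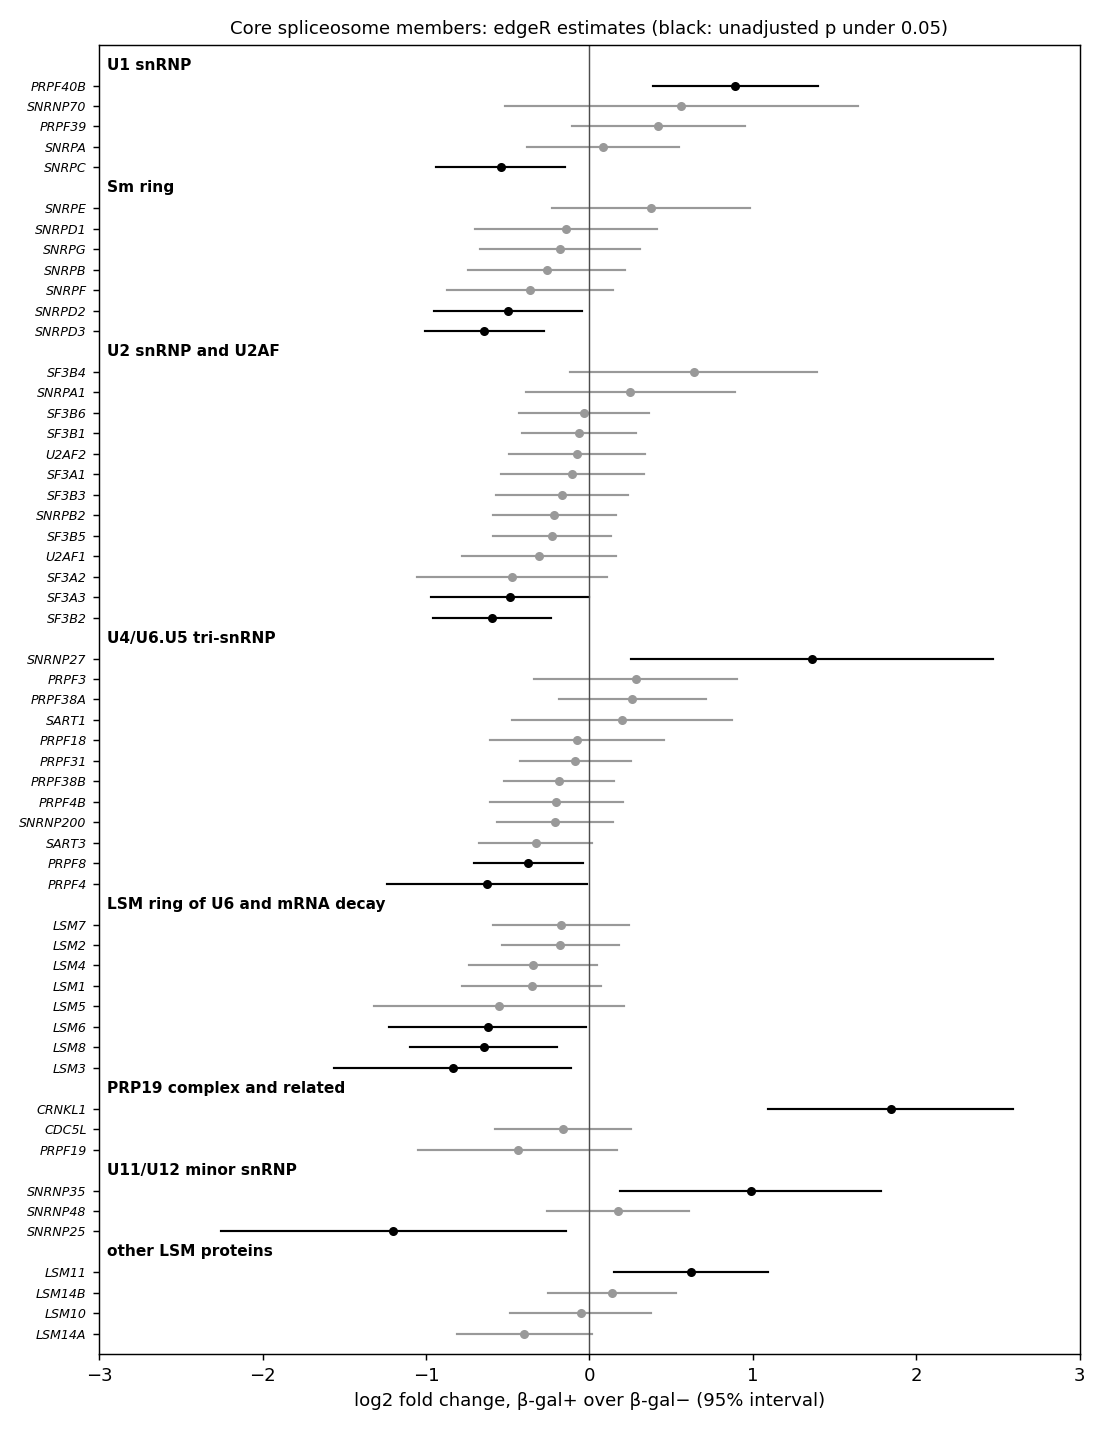
Log2 fold change, positive over negative cells, with its 95% interval (x axis) for 55 tested members by role group; black marks an unadjusted p under 0.05 and grey the rest. All 8 members of the LSM1 to LSM8 group lie below 0, 4 of the 5 plotted in the U1 group lie above 0, and the widest intervals belong to SNRNP27, SNRNP25 and SNRNP70.

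All 8 of LSM1 to LSM8 had a log2 fold change below 0, from -0.84 to -0.17 with a median of -0.45. They stayed below 0 with any 1 library left out, with a median of -0.23 without negative 2. Without both positive 1 and negative 2 it was 7 of 8, with a median of -0.20. LSM8 sets the nuclear ring on U6 apart from the cytoplasmic ring, where LSM1 takes its place in mRNA decay. LSM8 was at 78.3, 108, 106 and 114 CPM in positive 1, 3, 4 and 5, against 221, 136, 152 and 126 CPM in negative 2, 6, 7 and 8. No value overlapped, and the log2 fold change was -0.65 ± 0.21 (SE; edgeR adjusted p 0.309), or -0.43 without negative 2. LSM3 was at 84.3, 113, 101 and 128 CPM in the positive libraries, against 371, 132, 147 and 111 CPM in the negative ones. Its log2 fold change of -0.84 ± 0.33 (SE) was -0.27 without negative 2, with an unadjusted p of 0.157.

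LSM6, also a ring subunit, was at 12.3, 9.54, 7.06 and 15.2 CPM in positive 1, 3, 4 and 5, against 21.7, 15.4, 19.1 and 11.7 CPM in negative 2, 6, 7 and 8. The groups overlapped by negative 8, and the log2 fold change of -0.62 ± 0.28 (SE) had an unadjusted p of 0.0443, which was 0.143 without positive 4. LSM1 averaged 64.1 ± 15.9 CPM in positive and 81.9 ± 9.25 CPM in negative libraries (SD, n = 4 each), and LSM2, LSM4, LSM5 and LSM7 lay between -0.55 and -0.17 on the log2 scale, all with overlap between groups.

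Of the U2 snRNP and U2AF 11 of 13 members were below 0, with a median of -0.17, which was -0.07 without positive 5 and -0.25 without positive 1. With libraries scaled by their totals alone, without TMM factors, 7 of 13 were below 0, with a median of -0.04. The median of all tested genes was 0.10 with that scaling, against -0.02 with TMM factors. SF3B2, a subunit of the SF3B complex that holds the branch point region, was at 107, 98.9, 107 and 115 CPM in positive 1, 3, 4 and 5, against 199, 133, 160 and 157 CPM in negative 2, 6, 7 and 8. The positive libraries were all below the negative ones, and the log2 fold change was -0.60 ± 0.17 (SE; edgeR adjusted p 0.309), or -0.47 without negative 2. SF3B2 lies on chromosome 11 at 66050729 to 66069308, plus strand. SF3A3, of the SF3A complex that ties SF3B to U2, was at 55.4, 113, 89.8 and 119 CPM in the positive libraries, against 150, 121, 133 and 124 CPM in the negative ones. The groups were parted narrowly, and the log2 fold change of -0.49 ± 0.22 (SE) was -0.30 without positive 1, with an unadjusted p of 0.0906.

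SF3B1, the largest SF3B subunit and the one most often mutated in blood cancers, was at 172, 178, 191 and 182 CPM in positive 1, 3, 4 and 5, against 149, 200, 194 and 212 CPM in negative 2, 6, 7 and 8. The groups overlapped, and its log2 fold change of -0.06 had a 95% interval of -0.41 to 0.28. U2AF2, which binds the polypyrimidine tract, was at 128, 84.5, 75.3 and 82.4 CPM in the positive libraries, against 112, 90.0, 97.7 and 90.5 CPM in the negative ones, a log2 fold change of -0.08 (-0.49 to 0.34). U2AF1, which reads the 3′ splice site, was at 57.6, 35.3, 36.6 and 37.5 CPM in the positive libraries, against 67.9, 50.9, 45.1 and 43.1 CPM in the negative ones. All positive libraries but positive 1 were below every negative one, and the log2 fold change of -0.31 was -0.51 without positive 1 (unadjusted p 0.0241, adjusted p 0.478 in edgeR) and -0.14 without negative 2 (unadjusted p 0.498). A GENCODE transcript of U2AF1L5, a gene not analysed here, matched one of U2AF1 without mismatch over 98.7% of its length, so reads of these genes cannot be told apart. SNRPA1, a protein that binds U2 RNA, was at 531, 190, 261 and 184 CPM in positive 1, 3, 4 and 5, against 237 to 259 CPM in the negative libraries. SF3B4, another SF3B subunit, was the other U2 member above 0, at 0.64 ± 0.35 (SE) with overlap, and SF3A1, SF3A2, SF3B3, SF3B5, SF3B6 and SNRPB2 lay between -0.47 and -0.04, all with intervals that spanned 0.

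In the tri-snRNP group 8 of 12 members were below 0, with a median of -0.14, which was -0.09 without negative 2. Without both positive 1 and negative 2 it was 6 of 12, with a median of -0.05, and with library totals alone 6 of 12, with a median of -0.02. The median of all tested genes in these fits was 0.01 and 0.10. PRPF8, the large U5 protein at the heart of the catalytic site, was at 249, 291, 307 and 267 CPM in positive 1, 3, 4 and 5, against 366, 333, 400 and 346 CPM in negative 2, 6, 7 and 8. No value overlapped, and the log2 fold change was -0.37 ± 0.15 (SE; edgeR adjusted p 0.321), between -0.42 and -0.33 with any 1 library left out. With positive 1 left out the unadjusted p was 0.0515, and with negative 7 left out 0.0921. SNRNP200, the helicase that unwinds U4 from U6, was at 156, 193, 194 and 194 CPM in the positive libraries, against 179, 242, 221 and 210 CPM in the negative ones. Here negative 2 overlapped the positive range, and the log2 fold change was -0.21 (95% interval -0.56 to 0.14). SART3, which helps U4 and U6 to pair again after each round, averaged 50.9 ± 4.60 CPM in positive and 63.9 ± 6.73 CPM in negative libraries (SD, n = 4 each), with no overlap and an unadjusted p of 0.0607 in edgeR.

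PRPF4, of the U4/U6 particle, was at 13.2, 10.1, 10.3 and 8.65 CPM in positive 1, 3, 4 and 5, against 25.3, 9.99, 15.6 and 14.1 CPM in negative 2, 6, 7 and 8. The log2 fold change of -0.63 ± 0.28 (SE) was -0.32 without negative 2, with an unadjusted p of 0.201. SNRNP27, a small tri-snRNP protein, was at 3.67, 1.31, 4.13 and 2.62 CPM in the positive libraries, against 1.02, 0.508, 0.618 and 2.28 CPM in the negative ones. Its log2 fold change of 1.36 ± 0.51 (SE) rests on 10 to 31 counts per positive library and 3 to 16 per negative library, and negative 8 overlapped the positive range. PRPF3, PRPF18, PRPF31, PRPF38A, PRPF38B, PRPF4B and SART1 lay between -0.20 and 0.28 on the log2 scale, with intervals that spanned 0.

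Of the 3 proteins of the U11/U12 particle that met the symbol rule, SNRNP35 and SNRNP25 had estimates of opposite sign. SNRNP35 was at 2.50, 3.66, 4.80 and 4.85 CPM in positive 1, 3, 4 and 5, against 1.02, 2.88, 2.01 and 2.14 CPM in negative 2, 6, 7 and 8, a log2 fold change of 0.99 ± 0.37 (SE; edgeR adjusted p 0.312). Positive 1 overlapped the negative range. SNRNP25 was at 21.4, 21.2, 14.9 and 28.1 CPM in the positive libraries, against 111, 14.4, 39.5 and 31.4 CPM in the negative ones. Its log2 fold change of -1.20 ± 0.49 (SE) was -0.40 without negative 2, with an unadjusted p of 0.212. The difference between SNRNP35 and SNRNP25 was not tested. SNRNP48 averaged 91.3 ± 26.5 CPM in positive and 80.8 ± 6.15 CPM in negative libraries (SD, n = 4 each).

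**Figure D3:**
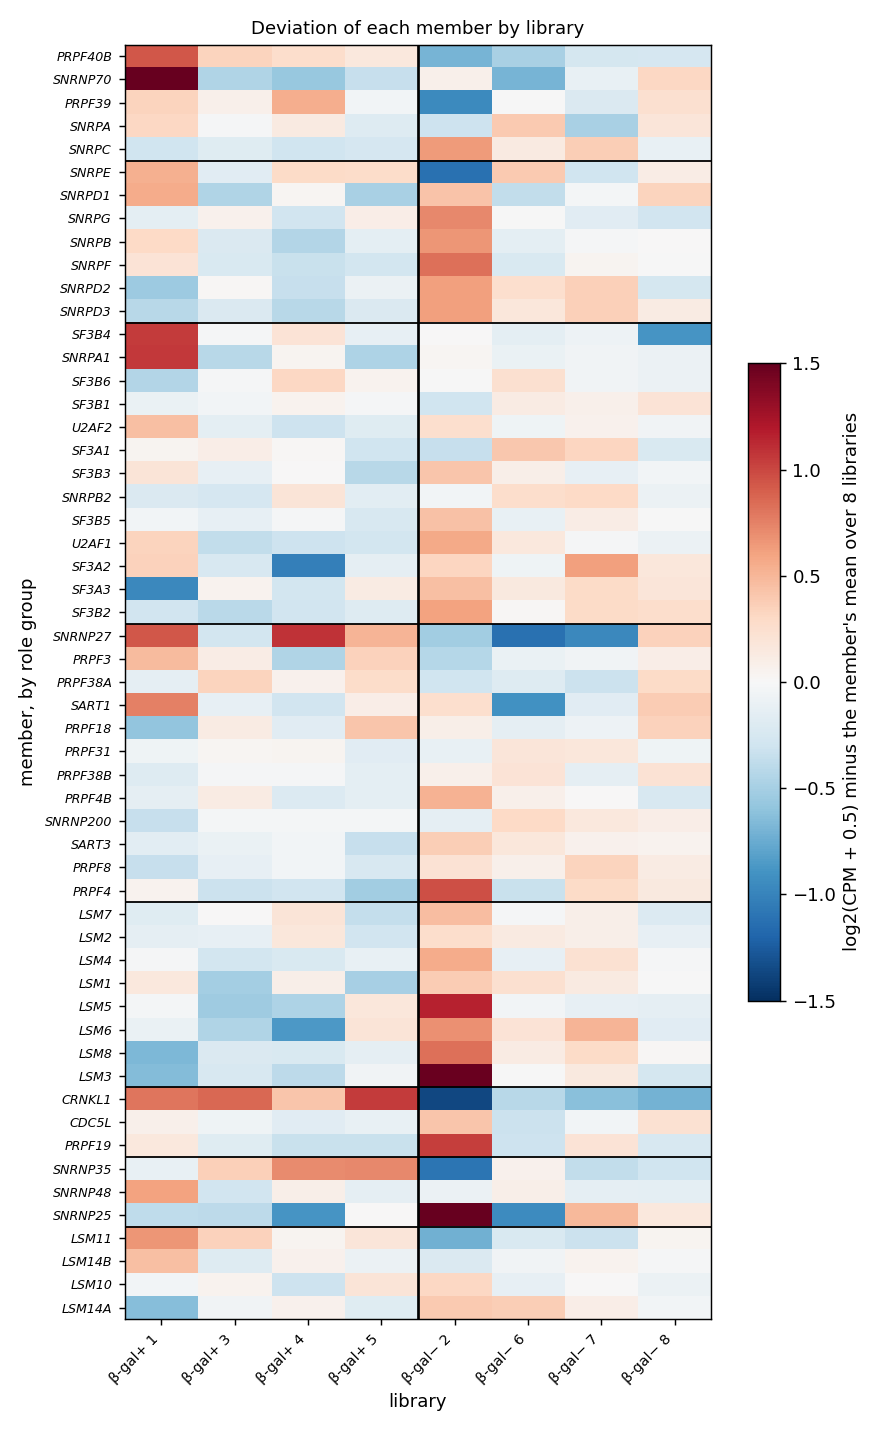
Deviation of 55 tested members, log2(CPM + 0.5) minus the member's mean over the 8 libraries (colour), by library (x axis, positive left of the line) and role group (y axis). Negative 2 is the highest library for 27 of these 55 members and positive 1 for 12, and these libraries hold the highest or lowest value of 49.

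Of the LSM proteins outside these rings, LSM11, which belongs to the U7 particle that matures histone mRNA, was at 50.4, 40.2, 32.5 and 36.0 CPM in positive 1, 3, 4 and 5, against 18.9, 26.9, 25.2 and 32.5 CPM in negative 2, 6, 7 and 8. The log2 fold change was 0.62 ± 0.22 (SE; edgeR adjusted p 0.312), or 0.49 without positive 1. Positive 4 and negative 8 met at nearly the same level. LSM10, its partner in U7, was at -0.05 (95% interval -0.48 to 0.38) on the log2 scale. LSM14A, of cytoplasmic mRNA granules, averaged 174 ± 34.5 CPM in positive and 230 ± 33.5 CPM in negative libraries (SD, n = 4 each), and LSM14B 60.8 ± 12.8 and 55.2 ± 4.34 CPM.

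The row of LSM12, which is not known to be part of the spliceosome, held 2, 1, 0 and 9 counts in positive 1, 3, 4 and 5, against 0, 2, 0 and 6 counts in negative 2, 6, 7 and 8. The row of LSM12P1, a processed pseudogene, held 951, 1321, 1629 and 1489 counts in the positive libraries, against 1986, 1375, 1519 and 1348 counts in the negative ones. The 588 bases of the annotated LSM12P1 transcript match LSM12 at every base, so reads from this stretch cannot be told apart. The row of LSM12P1 had a log2 fold change of -0.35 and an adjusted p of 0.372 in edgeR.

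SNRPN, a tissue-restricted relative of SNRPB, held 5, 7, 1 and 7 counts in positive 1, 3, 4 and 5, against 12, 3, 1 and 5 counts in negative 2, 6, 7 and 8. SNURF, an upstream reading frame of the same locus on chromosome 15, held 330, 605, 421 and 673 counts in the positive libraries, against 1155, 470, 764 and 568 counts in the negative ones. The row of SNURF had a log2 fold change of -0.68, with overlap between groups. Its unadjusted p was 0.0215 and its adjusted p 0.313 in edgeR. GENCODE assigns 814 exonic bases to both genes, which is 69.3% of the exonic bases of SNURF and 23.8% of those of SNRPN. Which gene these reads came from was not tested. LSMEM2 held at most 6 counts in any library.

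**Figure D4:**
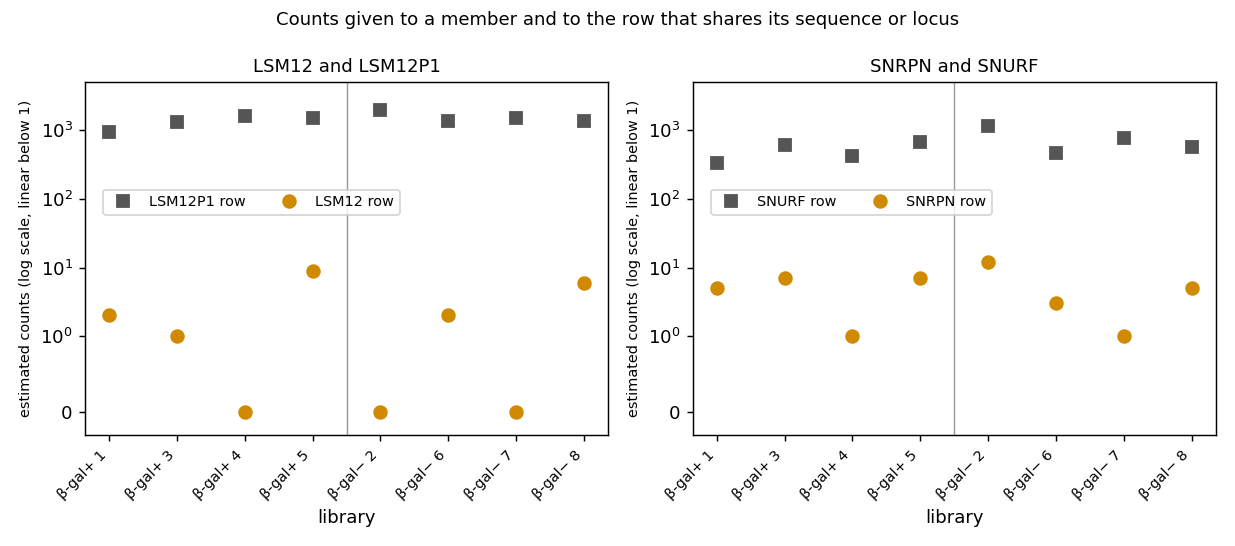
Estimated counts (y axes, log scale that is linear below 1) in each library (x axes, positive left of the line) for LSM12 and SNRPN (circles) and for the rows LSM12P1 and SNURF (squares), which share sequence or locus with them. LSM12 has at most 9 counts and SNRPN at most 12, where LSM12P1 has 951 to 1986 and SNURF 330 to 1155.

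Other spliceosome genes, from a list of 72, had 66 tested members, of which 3 were higher and 8 lower in positive cells at an unadjusted p under 0.05 (16.7%, beside 14.4% of all tested genes). Their median log2 fold change was -0.19. The 6 of smallest p, each with an edgeR adjusted p between 0.309 and 0.312 and no overlap between groups, were CASC3 of the exon junction complex (-0.67 ± 0.18, log2 fold change with SE), WBP11 (-0.75 ± 0.20), ACIN1 of the exon junction complex (0.92 ± 0.27), BCAS2 of the PRP19 complex (-0.57 ± 0.19, or -0.36 without negative 2), IK of the complex before activation (-0.46 ± 0.17) and the U5 GTPase EFTUD2 (-0.60 ± 0.22). EFTUD2 was at 83.9, 105, 73.8 and 113 CPM in positive 1, 3, 4 and 5, against 206, 116, 132 and 114 CPM in negative 2, 6, 7 and 8. It lay below in every positive library, by little from negative 8, and its log2 fold change was -0.35 without negative 2. Of genes that assemble snRNPs, such as the SMN complex, 17 of 19 were tested, with 0 higher and 1 lower (GEMIN5), and of further genes of the minor spliceosome 8 of 9, with 0 at an unadjusted p under 0.05 in edgeR.

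The count of members depended on the scaling of the libraries. Scaling by library totals alone moved the median log2 fold change of all tested genes to 0.10, from -0.02 with TMM scaling, and that of the members to -0.04, still below that of all genes. There 7 members were higher and 6 lower at an unadjusted p under 0.05, beside 10.2% and 2.85% of all tested genes. All 8 of LSM1 to LSM8 remained below 0 and 5 of 6 of the U1 group above 0 with this scaling, while the U2 and tri-snRNP groups had 7 of 13 and 6 of 12 below 0, and SF3B1 (0.04) and U2AF2 (0.05) turned above 0. Of the 17 members, 12 have a gene on the other strand that overlaps their span in GENCODE, beside 29 of all 59 members. Exonic overlap was measured for CRNKL1 alone among these 12, and reads from exonic bases shared by both strands cannot be told apart where strand was not used.

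**Figure D5:**
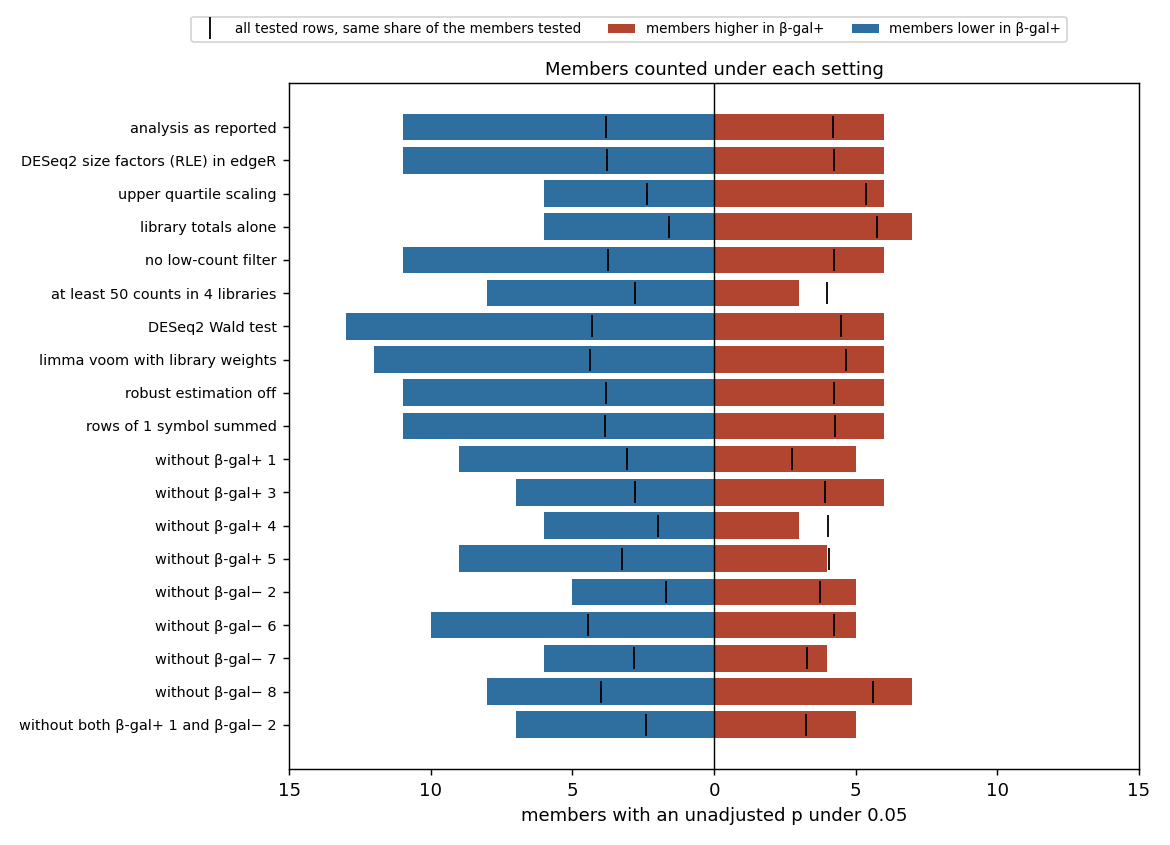
Number of members with an unadjusted p under 0.05 (x axis, higher in positive cells to the right, lower to the left) under each setting (y axis); black ticks give the number that the share over all tested genes would make of the members tested. As reported there are 6 higher and 11 lower, and without negative 2 there are 5 and 5.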

How the data were processed

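Libraries of RNA from sorted A549 cells were made by multiplexed amplification of 1 short region per gene on Ion Torrent, per the labels' protocols, and levels of different genes were not ranked since they do not scale with length. Reads were processed with fastp 0.20.1 and Salmon 1.9 with the build GRCh38, per the submitters' processing notes. No source used here names the transcript annotation or the summing to genes. The values deposited by the authors are estimated counts per gene, already whole, and not scaled to depth (5634961 to 7990839 per library). They carry counting error of amplicon reads without molecular identifiers.

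Rows were kept with filterByExpr (minimum count 10, total 15), which left 11351 of 13841, and tested with edgeR 4.0.16 (R 4.3.3; TMM scaling, robust quasi-likelihood test, Benjamini-Hochberg adjustment over all 11351, threshold 0.05). CPM values are TMM-scaled. No libraries agreed within sampling noise (lowest chi-square per degree of freedom 8.44). Library numbers are each used once, so no pairing was fitted. The scripts were tested on simulated data. Members named with values were those at an unadjusted p under 0.05, the smallest p of each role group and 7 fixed genes. Further genes given by value and outside that rule, such as SNRNP70, SNRPA1, SART3, LSM12 and SNURF, were chosen after their values were seen. Of the members counted, 1 is not reported here. Members, lists and alternatives were chosen with earlier results of these data known. Pseudogenes were recognised by RefSeq biotype, so SNRNP27 and like symbols stayed. Alternatives were other scalings and filters, DESeq2 1.42.0, limma 3.58.1 voom with library weights, non-robust estimation, summed rows of 1 symbol, and libraries left out.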

Additional observations from a re-analysis of the deposited data

Results flagged for a closer look

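In 8 of the 112 groups checked (56 tested members in 2 groups of 4 libraries), 1 library lay far from the other 3 of its group. Chance flags about 1 in 20 groups. Of the 8, 7 were in positive 1 or negative 2. Positive 1 was high for SNRNP70 (114 CPM, the other 3 positive libraries between 21.9 and 25.4), for SNRPF (179 CPM, the others 123 to 132) and for U2AF1 (57.6 CPM, the others 35.3 to 37.5), and low for SNRNP200 (156 CPM, the others 193 to 194). Negative 2 was high for LSM3 (371 CPM, the other 3 negative libraries between 111 and 147), for LSM5 (15.0 CPM, the others 5.85 to 6.26) and for SNRPB (949 CPM, the others 543 to 604). Positive 3 was high for PRPF4B (93.9 CPM, the others 74.7 to 77.9). The source of these departures was not tested.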

How the results depend on the processing

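No paired analysis was possible because each library number is used once. Of 609 values recomputed under 18 alternatives, 580 were counted as unchanged. For single genes this meant the same direction and side of the adjusted threshold of 0.05. No gene passed that threshold in edgeR with all 8 libraries, so a change of side was unlikely from the outset. Counts had to stay within 1.5 times, and the member median had to shift by less than 0.0982. At an unadjusted p under 0.05 in edgeR, 8 of the 17 members stayed without positive 4 and 10 without negative 2. Of all tested genes 10.7% and 9.7% were under 0.05 in these fits, beside 14.4% with all 8 libraries. How many of the genes under 0.05 with all 8 libraries stayed so was not counted. The count of genes past the adjusted threshold was 52 with DESeq2's Wald test and ranged from 0 to 1 with 1 library left out, being 1 without negative 6 and without negative 8. The 11 members lower at an unadjusted p under 0.05 were 6 with upper quartile scaling and 6 with library totals alone, 7 without both positive 1 and negative 2, and 5 to 10 with 1 library left out (5 without negative 2, 6 without positive 4 or negative 7, 7 without positive 3). Of all tested genes 6.85% were lower with all 8 libraries, and this share also fell in each setting named. It was 4.3% with upper quartile scaling, 2.85% with library totals, 3.01% without negative 2 and 3.54% without positive 4. It was 5.03% without negative 7 and 4.98% without positive 3. The 6 higher were 3 with at least 50 counts, 3 without positive 4 and 3 to 7 with 1 library left out. Of all tested genes 7.52% were higher with all 8 libraries, 7.96% with at least 50 counts and 7.16% without positive 4. The member median of -0.18 was -0.042 with library totals and -0.20 to -0.049 with 1 library left out, where -0.049 was without negative 2.

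Of 66 other spliceosome genes, 3 higher and 8 lower, there were 6 higher with upper quartile scaling, 6 higher and 4 lower with library totals, and 13 lower with limma voom. With 1 library left out they ranged from 1 (without negative 6) to 5 (without negative 8) higher and from 4 (without negative 2) to 11 lower, with 5 lower without negative 7. SF3B1 was at 0.038 with library totals and -0.15 to 0.023 with 1 library left out (0.023 without negative 8), and U2AF2 at 0.053 with totals and -0.27 to 0.024 (0.024 without positive 4, 0.0099 without negative 2). CRNKL1 (1.86) and SNRPD3 (-0.64) passed the threshold in DESeq2. The cause of these shifts was not tested. In the analysis of all 8 libraries the median half-width of a member's 95% interval was 0.46 on the log2 scale, which limits what could be seen.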
